A study of Mus musculus with 28 samples.

Results

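Genes of the mitotic cyclins and their kinases were followed in pancreatic islets of 28 mice, 1 RNA library per mouse. The 9 genes were taken by symbol from a deposited matrix of 14219 genes in log2 CPM (CPM, a read count scaled to the size of its library). They were Ccna2, Ccnb1, Ccnb2, Ccne1, Ccne2, Cdk1, Cdk2, Cdc25b and Cdc25c, and all 9 were found once.

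Mice labelled βKlf6KO carried floxed Klf6 on both alleles plus Ins1 Cre/+, a Cre recombinase inserted in 1 allele of the insulin gene Ins1, which acts in β cells. Mice labelled control carried the same floxed alleles with Ins1 +/+ and no Cre, so the Cre insertion and the deletion cannot be told apart. Both genotypes received either saline or S961, a peptide antagonist of the insulin receptor. The S961 arm held 8 libraries labelled βKlf6KO and 8 labelled control, and the saline arm held 6 of each label. All mice were males of 10 to 12 weeks on a mixed C57Bl6 and 129sv background, and their islets were picked by hand and cultured overnight before RNA extraction. The labels give no dose or duration of S961.

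The libraries held 28868638 to 45001633 reads over the listed genes, and 3 reads stood for 0.0685 to 0.105 CPM. Klf6, the gene to be deleted, did not differ past the test between the labels (adjusted p = 0.974 after saline and 0.517 after S961). It stood at 7.22 ± 0.51 log2 CPM in libraries labelled βKlf6KO S961 and 6.94 ± 0.72 in those labelled control S961 (SD, n = 8 each), and at 6.97 ± 0.26 in those labelled βKlf6KO saline and 7.0 ± 0.42 in those labelled control saline (SD, n = 6 each). Counts per gene do not single out deleted exons, and islet cells other than β cells keep Klf6, so the level checks the labels weakly. A Cre insertion takes up 1 allele of Ins1, yet Ins1 relative to Ins2, on the log2 scale, stood at -1.94 ± 0.48 in libraries labelled βKlf6KO S961 and -1.31 ± 0.69 in those labelled control S961 (SD, n = 8 each), and -1.29 ± 0.27 in those labelled βKlf6KO saline and -1.63 ± 0.77 in those labelled control saline (SD, n = 6 each). Neither check separated the labels, the Ins1 ratio was lower under the βKlf6KO label after S961 and higher after saline, and whether libraries were exchanged was not tested. The groups are called by their labels throughout, and every genotype direction below is a difference between labelled groups. β-cell markers were present in all libraries, with a summed level over 10 genes of 58341 to 226027 CPM, and markers of α, acinar, duct, endothelial, stromal and macrophage cells were present too. In such bulk samples, more cells of a type and more RNA per cell cannot be told apart.

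As background, a cyclin binds and switches on a cyclin-dependent kinase (Cdk), and different pairs drive successive steps of the cell cycle. Cyclins E1 and E2 (Ccne1, Ccne2) pair with Cdk2 at the entry into DNA synthesis, cyclin A2 (Ccna2) works with Cdk2 and then Cdk1 through DNA synthesis and into mitosis, and cyclins B1 and B2 (Ccnb1, Ccnb2) pair with Cdk1 to drive mitosis. The phosphatases Cdc25b and Cdc25c remove inhibitory phosphates from these kinases. Adult β cells divide rarely, and blocking the insulin receptor is known to raise β-cell division in mice.

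The genes fell into a pair of patterns. Ccna2, Ccnb1, Ccnb2, Cdk1 and Cdc25c differed by 2.65 to 4.02 on the log2 scale between libraries labelled βKlf6KO and control after saline. Ccne1, Ccne2, Cdk2 and Cdc25b differed by 0.32 to 0.53 in the same comparison. In 12 of the 14 libraries labelled control, each of the first 5 genes lay below its lowest value among the 14 libraries labelled βKlf6KO. The other two were labelled control S961 replicates 4 and 6, which lay within or above the range of the labelled βKlf6KO S961 libraries in all 5 genes. Ccne1 divided the labels as well, by a smaller step. In 13 of the 14 libraries labelled control it lay below its lowest value under the βKlf6KO label (1.74 log2 CPM). The exception was labelled control S961 replicate 4, at 1.88. The picture of deviations by library shows the division of the first 5 genes.

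**Figure D1:**
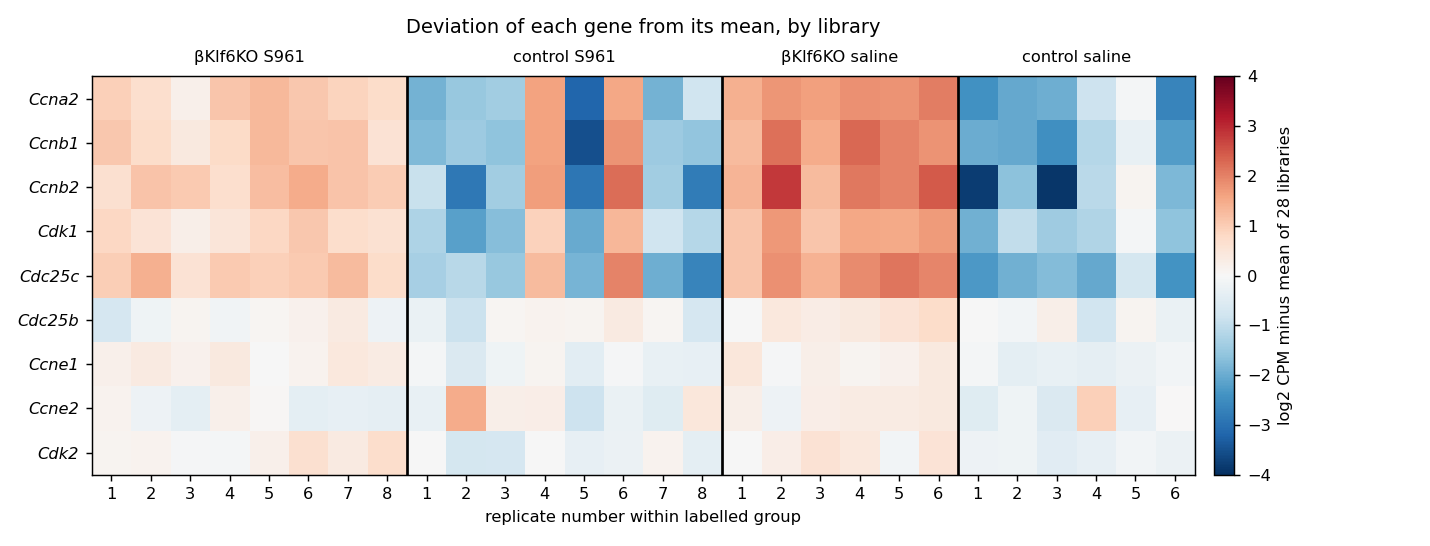
Colours give log2 CPM minus the gene's mean over 28 libraries for each of the 9 genes (rows) and each library (columns, by labelled group and replicate number). The upper 5 rows are above their mean in all 14 libraries labelled βKlf6KO and in labelled control S961 replicates 4 and 6. Of the lower 4 rows, Ccne1 divides the labels by a smaller step, with 13 of 14 control libraries below all libraries labelled βKlf6KO. Ccne2, Cdk2 and Cdc25b do not divide the libraries in this way. Ccne2 is highest in labelled control S961 replicate 2 (5.5 log2 CPM) and control saline replicate 4 (4.95 log2 CPM).

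Promoters of the mitotic genes are shown because several such genes are known to be controlled through a shared pair of elements. These are CCAAT boxes, bound by the factor NF-Y, and the cell cycle homology region (CHR), bound by the MuvB complex and searched here by the letters TTTGAA, by TTTAAA and by TTCGAA. Both were searched on both strands from 250 bases before to 50 after the RefSeq start (GRCm38.p6), and the last 2 of the CHR forms read the same on both. A sequence was matched for 6 of the 9 genes: Ccnb1, Ccnb2, Ccne1, Cdk1, Cdk2 and Cdc25b. For 3 genes of the large change, Ccnb1 (minus strand, chr13:100786472-100786606), Ccnb2 (minus strand, chr9:70421540-70421674) and Cdk1 (minus strand, chr10:69352898-69353032), and for Cdk2 as a gene of the small change (minus strand, chr10:128705037-128705171), the 120 bases before and 15 after the start read as follows, 5′ to 3′ on the gene's strand. Capitals mark CCAAT, its reverse complement ATTGG, or a CHR.
Ccnb1: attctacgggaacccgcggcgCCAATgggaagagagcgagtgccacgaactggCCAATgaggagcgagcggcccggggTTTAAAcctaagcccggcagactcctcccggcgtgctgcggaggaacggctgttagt
Ccnb2: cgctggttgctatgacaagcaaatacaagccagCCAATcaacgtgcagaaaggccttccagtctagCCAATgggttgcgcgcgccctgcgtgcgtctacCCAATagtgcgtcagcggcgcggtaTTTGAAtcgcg
Cdk1: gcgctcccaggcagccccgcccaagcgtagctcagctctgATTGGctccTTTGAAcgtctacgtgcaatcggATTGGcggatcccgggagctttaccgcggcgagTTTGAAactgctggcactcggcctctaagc
Cdk2: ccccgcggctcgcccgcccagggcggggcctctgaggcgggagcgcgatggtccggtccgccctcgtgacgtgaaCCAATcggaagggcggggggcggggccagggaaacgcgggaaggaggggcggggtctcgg

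Ccnb1 had CCAAT 99 and 67 bases before the start and a CHR 42 bases before it. Ccnb2 had CCAAT 87, 54 and 21 bases before the start, a CHR 4 bases after it and another 167 bases before it. Cdk1 had CCAAT on the minus strand 208, 80 and 48 bases before the start, and a CHR at 71 and 15. Each of these 3 windows therefore held a CHR together with several CCAAT boxes. Cdk2 had CCAAT 45 bases before the start and no CHR letters in the window, Ccne1 had a CHR 15 bases before the start and no CCAAT letters, and Cdc25b had CCAAT on the minus strand 28 bases before and a CHR 7 bases after the start. Of 32851 promoter windows of this length, 28.8% held a CHR, 37.4% held CCAAT and 3.33% held a CHR with at least 2 CCAAT. These matches describe letters only, and no binding was measured.

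Levels between genes are compared per length, as CPM per kilobase of the longest annotated transcript. Over 28 libraries the median was 5.07 for Ccne2, 1.82 for Ccna2, 1.69 for Ccne1, 1.51 for Cdc25b, 1.49 for Ccnb1, 1.47 for Cdk1, 1.31 for Ccnb2, 1.06 for Cdk2 and 0.375 for Cdc25c. From Ccna2 down to Ccnb2 the neighbours lay closer than their spread over libraries. In labelled βKlf6KO saline libraries the order was Ccne2 at 6.54, Ccna2 at 3.79, Ccnb1 at 3.50, Ccnb2 at 2.99 and Cdk1 at 2.96, all above Ccne1 at 1.97. In labelled control saline libraries Ccne2 at 4.50 and Ccne1 at 1.42 stood first, and Cdk1 at 0.416, Ccna2 at 0.279, Ccnb1 at 0.232, Ccnb2 at 0.219 and Cdc25c at 0.0530 stood last.

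After saline, 6 of the 9 genes were higher under the βKlf6KO label than under the control label, and none was lower. Of all 13591 genes tested, 2.78% were called, 2.09% higher and 0.692% lower (limma, Benjamini-Hochberg adjusted p below 0.05). The median log2 difference was 2.65 over the 9 genes and -0.00 over all genes tested. Per-library values are plotted by labelled group.

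**Figure D2:**
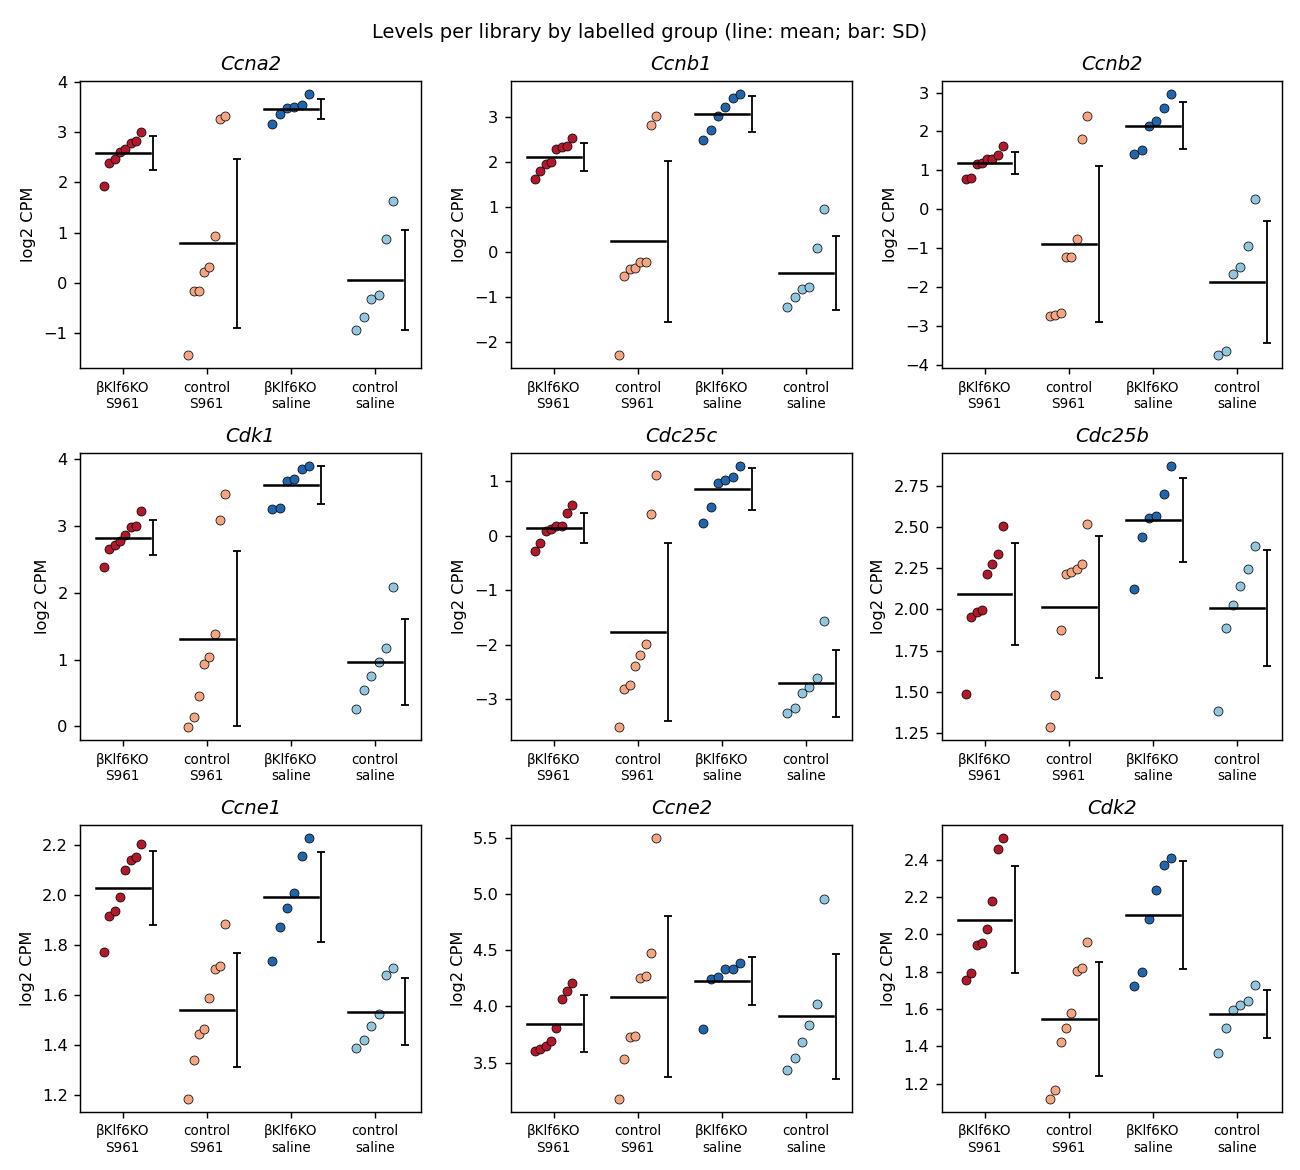
Each panel gives log2 CPM of 1 gene (vertical axis, own scale per panel) by labelled group, with 1 point per library, a line at the mean and a bar of 1 SD. In Ccna2, Ccnb1, Ccnb2, Cdk1, Cdc25c and Ccne1 all 6 libraries labelled βKlf6KO saline lie above all 6 labelled control saline, and in the first 5 of these labelled control S961 replicates 4 and 6 stand apart from the other 6 of their group.

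Cyclin A2, the partner of Cdk2 and Cdk1, is given first. Ccna2 (ENSMUSG00000027715, GRCm38 chromosome 3, 36564865 to 36572150, minus strand) ran from 3.16 through a median of 3.49 to 3.76 log2 CPM in libraries labelled βKlf6KO saline, and from -0.93 through -0.28 to 1.63 in those labelled control saline. The groups did not overlap, and the read counts were 345 to 516 in the first and 19 to 114 in the second. The log2 difference was 3.41 ± 0.57 (SE; 95% interval 2.24 to 4.58; adjusted p = 0.000733).

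The mitotic cyclins B1 and B2 were higher as well. Ccnb1 (ENSMUSG00000041431, chromosome 13, 100778650 to 100786570, minus strand) ran from 2.49 through 3.12 to 3.52 log2 CPM in libraries labelled βKlf6KO saline, and from -1.21 through -0.79 to 0.95 in those labelled control saline. The log2 difference was 3.53 ± 0.59 (SE; adjusted p = 0.000733). All 6 libraries labelled βKlf6KO again lay above all 6 labelled control. Ccnb2 (ENSMUSG00000032218, chromosome 9, 70407692 to 70421547, minus strand) ran from 1.42 through 2.19 to 2.96 log2 CPM in libraries labelled βKlf6KO saline, and from -3.75 through -1.58 to 0.27 in those labelled control saline. Its read counts were 91 to 304 in libraries labelled βKlf6KO saline and 2 to 44 in those labelled control saline, so its lowest control value rests on 2 reads. The log2 difference of Ccnb2 was 4.02 ± 0.74 (SE; adjusted p = 0.00169). With values under 1 CPM set to 1 CPM it was 2.10, still past the test.

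Their kinase was higher too. Cdk1 (ENSMUSG00000019942, chromosome 10, 69335146 to 69352938, minus strand) ran from 3.26 through 3.70 to 3.90 log2 CPM in libraries labelled βKlf6KO saline, and from 0.26 through 0.86 to 2.09 in those labelled control saline. The groups did not overlap, and the log2 difference was 2.65 ± 0.44 (SE; adjusted p = 0.000695). Cdk2 (ENSMUSG00000025358, chromosome 10, 128697939 to 128705031, minus strand), the kinase of the entry into DNA synthesis, ran from 1.72 through 2.16 to 2.41 log2 CPM in libraries labelled βKlf6KO saline, and from 1.36 through 1.61 to 1.73 in those labelled control saline. The ends of the groups overlapped slightly, and the log2 difference of 0.53 ± 0.16 did not pass the test (SE; 95% interval 0.19 to 0.87; adjusted p = 0.0811).

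The ratio of Cdk1 to Cdk2 within a library separated the labelled saline groups without any scaling between libraries. It was 1.51 ± 0.38 on the log2 scale in libraries labelled βKlf6KO saline and -0.61 ± 0.59 in those labelled control saline (SD, n = 6 each). Cdk1 stood above Cdk2 in CPM in 6 of 6 libraries labelled βKlf6KO saline and in 1 of 6 labelled control saline. After S961 the ratio did not separate the labels. It ran from 0.25 to 1.06 in libraries labelled βKlf6KO S961 and from -1.35 to 1.91 in those labelled control S961. The ratio was not tested.

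The phosphatases differed from each other. Cdc25c (ENSMUSG00000044201, chromosome 18, 34732993 to 34751533, minus strand), which acts at mitotic entry, ran from 0.23 through 0.99 to 1.28 log2 CPM in libraries labelled βKlf6KO saline, and from -3.25 through -2.84 to -1.57 in those labelled control saline. It had 45 to 80 reads in the libraries labelled βKlf6KO saline and 3 to 12 in those labelled control saline. The log2 difference was 3.56 ± 0.53 (SE; adjusted p = 0.000446), and by p it ranked 10 among 13591 genes. Its size rests on low control values, all under 1 CPM. With values under 1 CPM set to 1 CPM the difference was 0.85, still past the test. Cdc25b (ENSMUSG00000027330, chromosome 2, 131186949 to 131198497, plus strand), which starts the activation of Cdk1, ran from 2.12 through 2.56 to 2.87 log2 CPM in libraries labelled βKlf6KO saline, and from 1.39 through 2.08 to 2.39 in those labelled control saline. These groups overlapped, and the log2 difference of 0.53 ± 0.20 did not pass the test (SE; 95% interval 0.11 to 0.94; adjusted p = 0.179).

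The cyclins E showed small differences. Ccne1 (ENSMUSG00000002068, chromosome 7, 38097984 to 38107534, minus strand) ran from 1.74 through 1.98 to 2.23 log2 CPM in libraries labelled βKlf6KO saline, and from 1.39 through 1.5 to 1.71 in those labelled control saline. The groups did not overlap, and the log2 difference was 0.46 ± 0.12 (SE; adjusted p = 0.0373). That call ended without any 1 of labelled control saline replicates 2 to 6 or labelled βKlf6KO saline replicates 1, 3, 4, 5 or 6 (highest adjusted p = 0.110). It also ended with quantile normalization at 0.22 (adjusted p = 0.537), with each library centred on its median and with only the groups compared in the fit. Ccne2 (ENSMUSG00000028212, chromosome 4, 11191351 to 11204779, plus strand) ran from 3.80 through 4.30 to 4.39 log2 CPM in libraries labelled βKlf6KO saline, and from 3.44 through 3.76 to 4.95 in those labelled control saline. Its groups overlapped, and the log2 difference of 0.32 ± 0.27 did not pass the test (SE; 95% interval -0.24 to 0.88; adjusted p = 0.689).

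In 6 of the 9 genes the saline groups did not overlap, each with libraries labelled βKlf6KO above, against 2.46% of all genes tested with that order and 1.64% with the opposite order. Leaving out any 1 library kept the saline differences of Ccna2, Ccnb1, Ccnb2, Cdk1 and Cdc25c past the threshold. Within sequencing lanes 4 to 7, each with 1 or 2 libraries per group, their differences ran from 2.18 to 5.94 and were above 0 in every lane. With macrophage and lymphocyte list means as covariates the count was 3 in place of 6, with Ccna2, Ccnb1 and Cdc25c called, Ccnb2 at 3.51 (adjusted p = 0.0802) and Cdk1 at 2.25 (adjusted p = 0.0557).

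Markers of other cells moved in the same comparison. Of 12 macrophage genes 5 were higher in libraries labelled βKlf6KO saline, led by Fcgr3 at 1.04 and H2-Aa at 1.34, and their summed level was 157 to 766 CPM there and 116 to 164 CPM in libraries labelled control saline. Of 6 lymphocyte genes tested 2 were higher, among them Cd22 at 2.40, with a sum over 9 listed genes of 3.10 to 71.6 CPM in libraries labelled βKlf6KO saline and 2.56 to 9.12 CPM in those labelled control saline. The T-cell genes Cd3d and Cd3g had 0 reads in 14 and 11 of 28 libraries, and the B-cell genes Ms4a1 and Cd79b in 8 and 2, all named for these values. Among 9 genes of fibroblasts and stellate cells 2 were higher, Col3a1 at 1.44 and Col1a2 at 1.5, with a sum of 43.9 to 183 CPM in libraries labelled βKlf6KO saline and 36.9 to 102 CPM in those labelled control saline. None of 8 endothelial, 7 duct, 9 acinar, 6 α or 3 δ and PP cell genes passed the test, and of 10 β-cell genes 2 were lower, Nkx6-1 at -0.48 and Slc2a2 at -0.73. The part of these cells in the cyclin differences was not tested beyond the covariates.

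After S961, again 6 of the 9 genes were higher in libraries labelled βKlf6KO and none lower, against 4.36% of all genes called, 2.35% higher and 2.01% lower. They were Ccna2, Ccnb1, Cdk1, Cdc25c, Ccne1 and Cdk2. The median log2 difference was 1.51 over the 9 genes and 0.02 over all genes. No gene of the 9 separated the labelled groups fully, against 0.103% of all genes with libraries labelled βKlf6KO above and 0.28% with them below.

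Ccna2 ran from 1.94 through 2.64 to 3.01 log2 CPM in libraries labelled βKlf6KO S961, and from -1.44 through 0.27 to 3.32 in those labelled control S961. Labelled control S961 replicates 4 and 6 held 3.32 and 3.26, above all 8 libraries labelled βKlf6KO S961, while the other 6 lay between -1.44 and 0.94. The log2 difference was 1.80 ± 0.49 (SE; 95% interval 0.79 to 2.81; adjusted p = 0.0382).

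Ccnb1 ran from 1.63 through 2.15 to 2.53 log2 CPM in libraries labelled βKlf6KO S961, and from -2.29 through -0.28 to 3.02 in those labelled control S961. Labelled control S961 replicates 4 and 6 held 2.83 and 3.02 and the other 6 at most -0.21, a division like that of Ccna2. The log2 difference was 1.88 ± 0.51 (SE; adjusted p = 0.0374). Ccnb2 ran from 0.77 through 1.24 to 1.61 log2 CPM in libraries labelled βKlf6KO S961, and from -2.73 through -1.23 to 2.39 in those labelled control S961. Its control values of 1.80 and 2.39 were again those of replicates 4 and 6, and its log2 difference of 2.08 ± 0.64 did not pass the test (SE; 95% interval 0.78 to 3.39; adjusted p = 0.0557).

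Cdk1 ran from 2.39 through 2.82 to 3.23 log2 CPM in libraries labelled βKlf6KO S961, and from -0.01 through 0.99 to 3.49 in those labelled control S961. Cdk1 held 3.10 and 3.49 in labelled control S961 replicates 4 and 6 and at most 1.38 in the other 6, and the log2 difference was 1.51 ± 0.38 (SE; adjusted p = 0.0265). Cdk2 ran from 1.75 through 1.99 to 2.52 log2 CPM in libraries labelled βKlf6KO S961, and from 1.12 through 1.54 to 1.96 in those labelled control S961. Cdk2 did not show the division of the control group, since its highest control values were not in replicates 4 and 6. Its log2 difference was 0.53 ± 0.14 (SE; adjusted p = 0.0346).

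Cdc25c ran from -0.29 through 0.15 to 0.56 log2 CPM in libraries labelled βKlf6KO S961, and from -3.51 through -2.29 to 1.11 in those labelled control S961. Its read counts were 26 to 62 in libraries labelled βKlf6KO S961 and 2 to 73 in those labelled control S961. The log2 difference was 1.90 ± 0.46 (SE; adjusted p = 0.0234), but it was 0.00 (adjusted p = 0.989) when values under 1 CPM were set to 1 CPM, as 6 of its 8 control values were. Cdc25b ran from 1.49 through 2.10 to 2.5 log2 CPM in libraries labelled βKlf6KO S961, and from 1.29 through 2.22 to 2.52 in those labelled control S961. The 2 ranges nearly coincided, and the log2 difference was 0.08 ± 0.18 (SE; 95% interval -0.28 to 0.44; adjusted p = 0.798).

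Ccne1 ran from 1.77 through 2.05 to 2.20 log2 CPM in libraries labelled βKlf6KO S961, and from 1.19 through 1.53 to 1.88 in those labelled control S961. Only the ends of its groups overlapped, and the log2 difference was 0.49 ± 0.11 (SE; adjusted p = 0.0145), which held when any 1 library was left out (highest adjusted p = 0.0366). With quantile normalization it was 0.23 (adjusted p = 0.288). Ccne2 ran from 3.61 through 3.75 to 4.21 log2 CPM in libraries labelled βKlf6KO S961, and from 3.18 through 3.99 to 5.50 in those labelled control S961. The groups of Ccne2 overlapped throughout, and the log2 difference was -0.24 ± 0.24 (SE; 95% interval -0.72 to 0.25; adjusted p = 0.556).

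**Figure D3:**
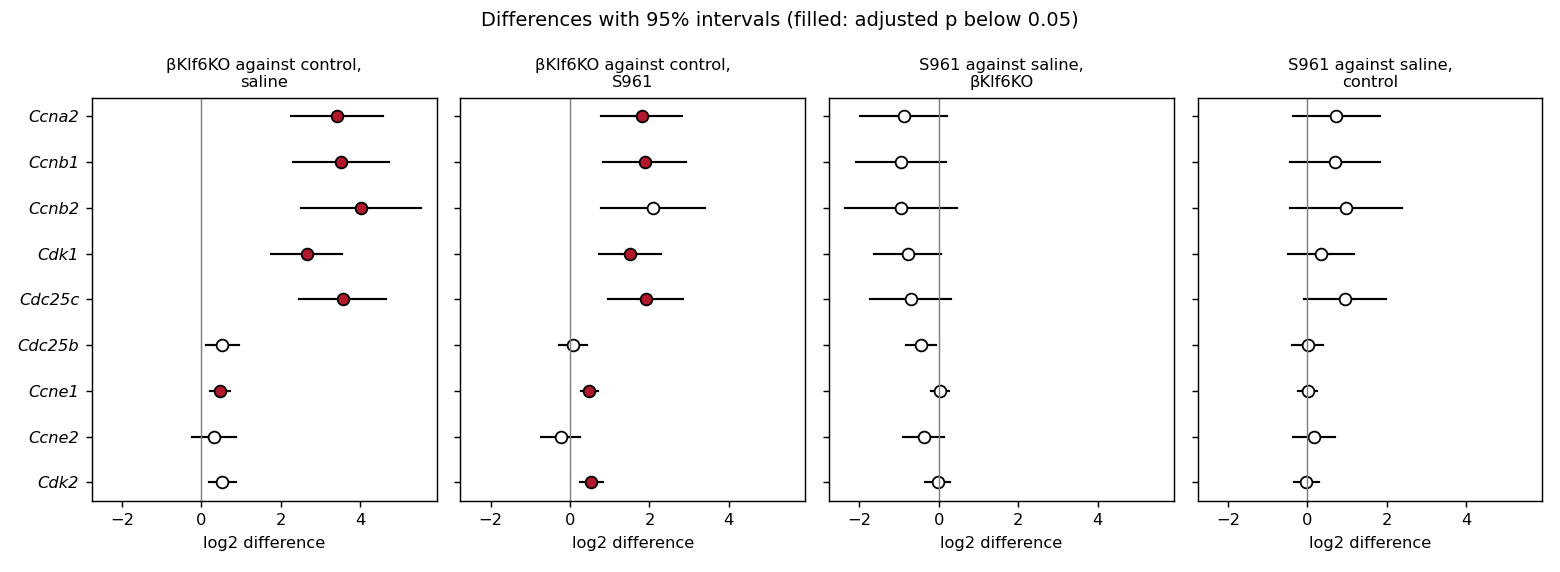
Log2 differences (horizontal axis) with 95% intervals are given for the 9 genes in 4 comparisons of labelled groups, with filled points where the adjusted p was below 0.05. Ccna2, Ccnb1, Ccnb2, Cdk1 and Cdc25c lie between 2.65 and 4.02 after saline and between 1.51 and 2.08 after S961 for βKlf6KO against control, and no point is filled for S961 against saline.

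The count of 6 after S961 depended on single libraries. Among libraries labelled βKlf6KO S961 it dropped to 3 when replicate 5 was left out and to 2 when replicate 6, 7 or 8 was. Among those labelled control S961 it dropped to 2 when replicate 2 was left out and to 1 when replicate 3 or 5 was. Ccnb2 joined the calls without labelled control S961 replicate 4 (adjusted p = 0.0196) or 6 (adjusted p = 0.0102). The count was 0 when only the 2 S961 groups were fitted, where Ccna2, Ccnb1 and Cdk1 kept their differences at adjusted p = 0.138, 0.144 and 0.120. It was 0 as well with macrophage and lymphocyte means as covariates, where Ccna2 differed by 1.80 (adjusted p = 0.106) and Cdk1 by 1.28 (adjusted p = 0.132). Within lanes 4 to 7, the S961 differences of Ccna2 were 1.17, 3.31, 0.57 and 2.15.

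Other cell types moved after S961 as well. Among 9 genes of fibroblasts and stellate cells 4 were higher in libraries labelled βKlf6KO S961, led by Col1a2 at 1.57 and Acta2 at 1.80, with a sum of 80.0 to 150 CPM there and 44.9 to 100 CPM in libraries labelled control S961. Of 12 macrophage genes 1 was higher, Cd14 at 1.09, with a sum of 153 to 462 CPM in libraries labelled βKlf6KO S961 and 120 to 214 CPM in those labelled control S961. No lymphocyte gene passed the test, and the median sum of that list was 3.15 CPM in libraries labelled βKlf6KO S961 and 4.21 CPM in those labelled control S961. None of 9 acinar genes passed the test, but their log2 differences were 0.60 to 1.4 with a median of 0.96, and their sum was 21981 to 94997 CPM in libraries labelled βKlf6KO S961 and 3876 to 34127 CPM in those labelled control S961. Of 7 duct genes 1 was higher, Spp1 at 1.16, and the median log2 difference of that list was 0.85. The duct sum was 706 to 1436 CPM in libraries labelled βKlf6KO S961 and 364 to 739 CPM in those labelled control S961. The part of acinar and duct RNA in the cyclin differences was not tested. Of 10 β-cell genes 4 were lower, led by Pdx1 at -0.47 and Slc2a2 at -0.88. Labelled control S961 replicate 6, with high mitotic cyclins, had sums of 159 CPM for macrophage, 2.49 CPM for lymphocyte and 58.0 CPM for fibroblast and stellate genes, all within the range of the control S961 libraries. Replicate 4 had the highest macrophage, lymphocyte and fibroblast sums of that group, at 214, 13.6 and 100 CPM.

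None of the 9 genes passed the test for S961 against saline in either labelled genotype, as in 0% of all genes tested in both comparisons (limma). At an unadjusted p below 0.05 there were 413 genes in libraries labelled βKlf6KO and 104 in those labelled control. Voom weights on the recovered reads called none of all genes, while a floor at 1 CPM called 11 and library weights 2 of all genes in libraries labelled βKlf6KO, none of them among the 9. In libraries labelled βKlf6KO, the 5 genes of the large change and Cdc25b had log2 differences of -0.96 to -0.45 that did not pass the test. Ccna2 differed by -0.88 ± 0.53 (SE; 95% interval -1.97 to 0.21; adjusted p = 1.0), and its values of 1.94 to 3.01 log2 CPM after S961 lay below those of 3.16 to 3.76 after saline. Cdk1 differed by -0.79 ± 0.41, and its values after S961 also lay below those after saline, at most 3.23 against at least 3.26 log2 CPM. Such separation in 2 of 9 genes stands against 0.191% of all genes with S961 below saline and 0.0809% with S961 above. Immune markers differed in the same direction without passing the test, with a median log2 difference of -1.93 over 6 lymphocyte genes and -0.25 over 12 macrophage genes. None of the other cell type lists held a gene past the test. Their median log2 differences were 0.41 for duct, 0.35 for acinar, 0.30 for fibroblast and stellate and 0.09 for endothelial genes. They were -0.02 for α, -0.14 for δ and PP and -0.17 for β-cell genes. The lymphocyte sum was 1.99 to 30.4 CPM (median 3.15) in libraries labelled βKlf6KO S961 and 3.10 to 71.6 CPM (median 21.6) in those labelled βKlf6KO saline. With the macrophage and lymphocyte means as covariates, the log2 difference was -0.51 for Ccna2 and -0.65 for Cdk1. The part of any of these cells in the differences was not tested beyond those covariates. When only the 2 groups labelled βKlf6KO were fitted, which leaves the wide labelled control groups out of the spread, the adjusted p was 0.0663 for Ccna2 and 0.0787 for Cdk1.

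In libraries labelled control, S961 against saline gave 0.73 ± 0.53 for Ccna2, 0.70 ± 0.55 for Ccnb1, 0.98 ± 0.69 for Ccnb2, 0.35 ± 0.41 for Cdk1 and 0.95 ± 0.50 for Cdc25c (SE; adjusted p = 0.973 for each). The other 4 genes lay between -0.03 and 0.17. Groups overlapped in all 9 genes, and S961 lay fully above saline in 0.00736% of all genes. The difference of the S961 responses, labelled βKlf6KO minus labelled control, was -1.61 ± 0.75 for Ccna2 and -1.66 ± 0.71 for Cdc25c (SE; adjusted p = 1.0 for both) and passed the test in none of the 9 genes, as in 0% of all genes (350 genes at an unadjusted p below 0.05). These comparisons share groups with the genotype comparisons above.

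Spread within groups differed between the gene sets. For Ccna2, Ccnb1, Ccnb2, Cdk1 and Cdc25c the SD over libraries was 0.26 to 0.33 log2 in libraries labelled βKlf6KO S961 and 1.31 to 2.0 in those labelled control S961, and 0.20 to 0.60 in those labelled βKlf6KO saline and 0.61 to 1.57 in those labelled control saline. Labelled control saline replicate 5 held the highest value of its group in these 5 genes, at 1.63, 0.95, 0.27, 2.09 and -1.57 log2 CPM, between the rest of its group and the libraries labelled βKlf6KO. Ccnb1 lay below Ccna2 in CPM in all 28 libraries, with a mean log2 ratio of -0.47 ± 0.19 in libraries labelled βKlf6KO S961 and -0.55 ± 0.38 in those labelled control S961 (SD, n = 8 each), and of -0.40 ± 0.32 in those labelled βKlf6KO saline and -0.52 ± 0.38 in those labelled control saline (SD, n = 6 each). Ccnb2 likewise lay below Ccnb1 in all 28, with a mean log2 ratio of -0.92 ± 0.39 in libraries labelled βKlf6KO saline and -1.41 ± 1.02 in those labelled control saline. Ccna2 relative to Cdk1 was -0.14 ± 0.17 in libraries labelled βKlf6KO saline and -0.91 ± 0.55 in those labelled control saline (SD, n = 6 each), a ratio that was not tested.

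Likeness between genes was measured over 28 libraries, which share their depth and scaling and divide into high and low values, so a high r mainly repeats that division. The 5 genes of the large change were set by the size of their saline differences, not by function. With the mean of the other 8 genes, Pearson's r was 0.94 to 0.97 for these 5, 0.75 for Ccne1, 0.66 for Cdk2, 0.45 for Cdc25b and -0.05 for Ccne2. After group means were removed it was 0.84 to 0.91 for the 5 genes of the large change, 0.37 for Ccne1, 0.24 for Cdk2, 0.27 for Cdc25b and -0.18 for Ccne2. That step keeps the division inside the labelled control S961 group, where replicates 4 and 6 stand apart, so these values repeat it too. The 5 other genes most like the mean z-score of the 9 were Ube2c (r = 0.97), Birc5 (0.97), Tpx2 (0.96), Cenpa (0.96) and Top2a (0.96). Ube2c helps to tag cyclins for destruction, Birc5 and Tpx2 act on the mitotic spindle, Cenpa marks centromeres and Top2a untangles DNA. Their log2 differences after saline were 3.11 to 3.62, the size of those of the mitotic cyclins. As the 5 were picked by likeness over these same libraries, a large difference between the labels was built into the choice. After S961 they were 1.49 to 1.80, with Ube2c (adjusted p = 0.0504) and Top2a (adjusted p = 0.0524) not past the test.

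The rest of the cyclin and Cdk network was described from 6 lists of 91 genes, of which 86 were tested. After saline 9 were higher in libraries labelled βKlf6KO and none lower, against 2.09% of all genes tested higher and 0.692% lower. The median log2 difference over the 86 was 0.00. Among 8 activators and partners of Cdks 3 were higher, the Cdk-binding subunit Cks2 at 1.69 ± 0.29, the mitotic kinase Plk1 at 3.46 ± 0.64 and Aurka, a spindle pole kinase chosen after its value was seen, at 1.47 ± 0.31 (SE). Of 19 genes of cyclin degradation 3 were higher, Ube2c at 3.62 ± 0.61, Cdc20, which activates the anaphase-promoting complex, at 3.38 ± 0.67 and, chosen after its value was seen, Fbxo5, an inhibitor of that complex, at 1.06 ± 0.25. Of 9 inhibitors of Cdks 2 were higher, Cdkn3 at 3.08 ± 0.63, a phosphatase of the kinases, and Cdkn2c at 0.60 ± 0.16, which binds Cdk4 and Cdk6. Of 20 transcription regulators 1 was higher, Foxm1, an activator of mitotic genes, at 1.82 ± 0.46. None of 5 D-type cyclins and kinases and none of 25 transcription and atypical cyclins and kinases passed the test, at medians of 0.07 and -0.13. Among all cyclin and Cdk genes of these lists and the 9, the calls after saline were Ccna2, Ccnb1, Ccnb2, Ccne1 and Cdk1.

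After S961, 3 of the 86 were higher and 2 lower in libraries labelled βKlf6KO, with a median of 0.02. Over all genes tested, 2.35% were higher and 2.01% lower, so both counts lie close to the shares over all genes. Plk1 was higher by 1.94 ± 0.56 (SE; adjusted p = 0.0466), Cdc20 by 2.16 ± 0.58 (adjusted p = 0.0373) and the Cdk inhibitor Cdkn1a by 0.76 ± 0.17 (adjusted p = 0.0171). The D-type cyclins Ccnd1 and Ccnd2, which act with Cdk4 and Cdk6 before DNA synthesis, were lower, with log2 differences of -0.28 ± 0.07 (adjusted p = 0.0201) and -0.34 ± 0.10 (adjusted p = 0.0484). These 2 moved in the direction opposite to Ccna2, Ccnb1 and Cdk1. The rest of their list, named to complete it, was higher without passing the test, with Ccnd3 at 0.09, Cdk4 at 0.29 and Cdk6 at 0.45. The list median was 0.09. After saline Ccnd1 differed by -0.13 ± 0.08 and Ccnd2 by -0.35 ± 0.11, neither past the test (SE; adjusted p = 0.489 and 0.0985). None of the 86 passed the test for S961 against saline in either labelled genotype, as in 0% of all genes tested.

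**Figure D4:**
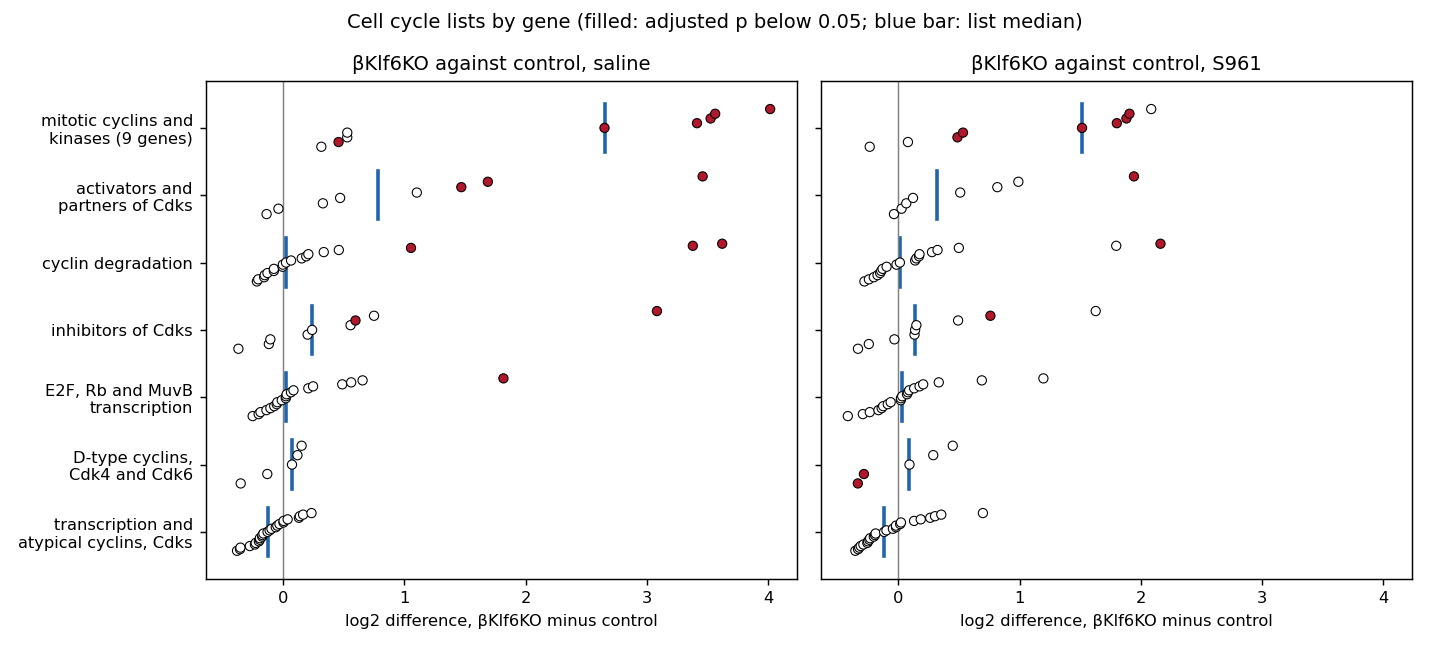
Each point is the log2 difference of 1 gene, labelled βKlf6KO minus control, after saline (left) and S961 (right), by list, with filled points at an adjusted p below 0.05 and a blue bar at the list median. The 9 mitotic cyclin and kinase genes have medians of 2.65 after saline and 1.51 after S961, and the 25 transcription and atypical cyclins and kinases lie between -0.38 and 0.70 with no filled point.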

How the data were processed

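RNA from islets of 28 mice was sequenced from stranded poly(A) libraries. The authors deposited log2 CPM for 14219 genes, and per the submitters' processing notes STAR 2.5.3a, HTSeq 0.9.1 and edgeR were used on GRCm38. Whether counting used strand is not stated, and overlapping genes may share reads. Each deposited log2 value could be turned back into a read count (log2 of reads plus 0.5, per scaled library), and 100% of values came out whole within 0.05. Limits in reads cover counting error only. All 28 columns matched a title. No pair of libraries within a group agreed within sampling noise (lowest chi-square per degree of freedom 32.1 over 86 pairs).

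The filter asked for 1 CPM or more in 6 or more libraries, which left 13591 genes, the 9 described here included, and removed 628. A model of 4 labelled group means over all 28 libraries was fitted by limma 3.58.1 (R 4.3.3) with an intensity trend. Tests were two-sided over 5 comparisons, with Benjamini-Hochberg adjustment over all genes kept, and every adjusted p is from limma. The fit was tested on simulated data. Each library is a separate mouse per the labels. The genes, lists and alternatives were chosen with earlier results of these data known. Named genes were the 9, Klf6 as a label check, up to 2 called genes per list and direction with the smallest p, and the 5 genes of most like pattern. Other genes named were picked on their values, and so marked. Alternatives were filters, a floor, scalings, covariates, weights, moderation, a fit of only the groups compared and each library left out. Voom weights on the recovered reads were chosen after seeing the data. Coordinates are from GENCODE on GRCm38, and promoters are from RefSeq on GRCm38.p6. The values of 1 lymphocyte marker gene are not reported here.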

Additional observations from a re-analysis of the deposited data

Results flagged for a closer look

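Of 36 sets of values (9 genes in 4 labelled groups), 1 held a library set apart from its group by more than Dixon's limit, and chance alone sets about 5% apart. It was Ccne2 in labelled βKlf6KO saline replicate 2, at 3.80 log2 CPM with the nearest of the other 5 at 4.25, a gap of 0.762 of the group's range. The same library held the highest Ccnb2 of all 28 libraries, at 2.96 log2 CPM. The rule looks at 1 extreme value and its nearest neighbour. It therefore cannot set apart 2 libraries that are high together, such as labelled control S961 replicates 4 and 6 in the genes of the large change.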

How the results depend on the processing

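Of the 9 genes, the number called for βKlf6KO against control after saline was 5 to 6 when each library was left out, 3 with a filter at 5 CPM in 6 libraries (fewer genes tested) and 3 with macrophage and lymphocyte means as covariates. After S961 it was 1 to 7 when each library was left out, 3 with the filter at 5 CPM, 1 with quantile normalization, 0 with only the groups compared, 2 with library weights, 0 with macrophage and lymphocyte means and 2 when the 3 libraries with the highest scores on the first principal component were left out (labelled control S961 replicates 2 and 8 and control saline replicate 4). For the others the cause was not tested. No called gene changed direction under any of these settings. S961 against saline in either genotype and the difference of S961 responses gave 0 calls among the 9 under each setting tried. Library weights called Ccne2 (0.56), Cdk2 (0.53) and Cdc25b (0.44) higher after saline, as the first component as a covariate did. S961 against saline in libraries labelled βKlf6KO gave 11 calls over all genes with a floor at 1 CPM and 2 with library weights, against 0. Over all genes, calls after saline numbered 378, against 117 with the filter at 5 CPM, 3018 with library weights, 2821 with the first component, 87 with macrophage and lymphocyte means, 690 without those 3 libraries and 214 to 532 leaving out each library. After S961 they numbered 593, against 35 with only the groups compared, 395 with quantile normalization, 3829 with the first component, 146 with those means and 177 to 817 leaving out each library. With the replicate block the count was 6 after saline and 6 after S961. Same-numbered libraries did not as a set deviate together (median r = -0.07 over 38 pairs, from -0.71 to 0.85), and 2 of 28 libraries correlated best with their own number. The numbers thus gave no sign of pairing, which does not exclude a pairing of the mice. A planned quasi-likelihood test on recovered reads was not run. Cdc25c and Ccnb2 rest on few reads in most control libraries, and Ccnb2 had the largest SE of the 9 genes in both genotype comparisons (0.74 and 0.64).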
